A study of Rattus norvegicus with 8 samples.

Results

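The BCL2 family was examined in NR8383 cells, a macrophage line that was established from rat lung lavage, after exposure to zinc oxide (ZnO). The 10 members were taken from textbook classes: the pro-survival genes Bcl2, Bcl2l1 and Mcl1, the effectors Bax and Bak1, and the BH3-only genes Bcl2l11, Bbc3, Pmaip1, Bid and Bad. Their probes were found on the array through rat RefSeq transcript accessions, which gave 17 of the 45598 distinct non-control probes and 19 spots per array. Of the 10 genes, 8 had a probe bright enough to test, among 13460 genes tested in all. The exposed groups were 4 arrays of cells given 16 µg/mL ZnO (ZnO 16) and 4 arrays of cells given 4 µg/mL ZnO (ZnO 4), both for 4 h. The design text calls the 4 arrays of a dose biological replicates. Untreated cells were not analysed here, so each result sets the higher dose against the lower one. NR8383 is a single line that grows partly attached and partly floating, with 200 passages stated for the cultures at 16 µg/mL and 20 for those at 4 µg/mL. All arrays of a dose shared 1 slide and 1 scan. The effect of dose cannot be told apart from that of slide, scan or passages in any result below.

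The BCL2 family controls the mitochondrial route to apoptosis. The effectors BAX and BAK form pores in the outer mitochondrial membrane, the pro-survival proteins hold them in check, and the BH3-only proteins, many of which are induced or activated by stress, bind the pro-survival proteins or the effectors and tip the balance. Macrophages are known to lean on MCL-1, BCL-XL and the related A1 protein for survival, and much of the control of the family lies in protein turnover and binding, which mRNA does not show.

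Levels are log2 processed signals relative to the array's 75th percentile, and a difference is ZnO 16 minus ZnO 4 on that log2 scale. A gene was called where limma's adjusted p was under 0.05. The share of probes flagged by the scanner software as well above background was 31.5% to 35.8% on ZnO 16 arrays and 31.8% to 39.3% on ZnO 4 arrays. The 75th percentile signals were 374, 151, 190 and 381 on ZnO 16 replicates 1 to 4 and 516, 313, 479 and 428 on ZnO 4 replicates 1 to 4, so ZnO 16 replicates 2 and 3 were the dimmest arrays. An area of low signal lay on ZnO 4 replicate 4 and held 1 member spot, of a Bcl2l1 probe that was too dim to test. Of 13 macrophage markers, 11 were well above background on all 8 arrays, while Marco and Adgre1 were so on none. Of the 11, Spi1 (0.81) was called higher and Cd68 (-1.74) and Itgam (-0.52) lower, beside 19.8% and 21.9% of all genes. None of the 5 epithelial and none of the T and B cell markers was well above background on all 8 arrays, and Dcn was the 1 fibroblast marker that was. Among endothelial markers Kdr was well above background on none, and Cdh5 and Vwf on all. The summed relative signal of these 3 markers was 4.56 to 6.73 on ZnO 16 arrays and 9.24 to 11.9 on ZnO 4 arrays. Most of that sum was Vwf, with mean levels of 2.37 at 16 µg/mL and 3.32 at 4 µg/mL. Cdh5 was dim, at -3.56 and -2.91. The part of these markers in the results was not tested.

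Relative to the other genes on the array, most members that could be measured at both doses were higher at 16 µg/mL than at 4 µg/mL. These were 7 genes, well above background on all 8 arrays, of which limma called 5 higher and 0 lower, namely Mcl1, Bax, Bak1, Bbc3 and Bid. Among the 10435 genes under the same filter, 21.7% were called higher and 20.3% lower. The median difference of the 7 was 0.51, beside 0.05 for all genes under that filter. Bax was called on the brighter of a pair of probes that disagreed in direction. With Bax set aside, a choice made after its values were seen, 4 of 6 were called higher.
Bcl2l1 passed the wider filter used for all fits only through its ZnO 16 arrays, since its probe was under the detection limit at 4 µg/mL. Its call therefore adds no support to the count above. With Bcl2l1, 6 of the 8 tested genes were called higher and 0 lower. Of all tested genes 41.7% were called, 19.8% higher and 21.9% lower. For these same 6 the doses did not overlap, with every ZnO 16 array above every ZnO 4 array, beside 39.6% of all genes without overlap, 18.4% higher and 21.2% lower. At an unadjusted p under 0.05, 7 were higher and 0 lower. The share of all genes at that threshold was not counted, so nothing is read from this number. The genes called were both tested pro-survival genes, both effectors and 2 of the 4 tested BH3-only genes. The median difference was 0.91 for the pro-survival genes, 0.67 for the effectors and 0.59 for the BH3-only genes. The pro-survival median rests on Mcl1 and Bcl2l1. Among genes well above background on all 8 arrays it was 0.48, from Mcl1 alone, with the other medians unchanged. Under normexp background correction the medians were 0.53, 0.70 and 0.60, so no order of the classes is read from them. In RNA from whole cultures, more cells with a transcript and more transcript per cell cannot be told apart.

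These directions hold relative to the other genes on each array. Without any scaling between arrays the median gene had a difference of -0.75, and 0 members were called, with 0 higher and 0 lower at an unadjusted p under 0.05. With scaling to spike-in RNAs the median gene stood at -0.80 and 0 members were called, with 0 higher and 1 lower at an unadjusted p under 0.05. In both settings 7 of the 8 members still lay above the median gene, but the fitted differences of Mcl1 (-0.28 without scaling and -0.33 with spike-in scaling), Bax (-0.24 and -0.29), Bad (-0.38 and -0.43) and Bcl2l11 (-0.83 and -0.88) were below 0. Bcl2l11 was the 1 member not above the median gene. As an example, the processed signals of the Bak1 probe, before any scaling, were 2208, 1310, 1735 and 1728 on ZnO 16 replicates 1 to 4 and 1927, 1278, 1623 and 1765 on ZnO 4 replicates 1 to 4. These ranges overlap almost wholly, and the groups separate only after each array is divided by its own 75th percentile. The 7 Agilent spike-in RNAs that were well above background had differences between -0.68 and 1.62 on the percentile scale, with a median of 1.19, and every member's difference lies inside that range.

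**Figure D1:**
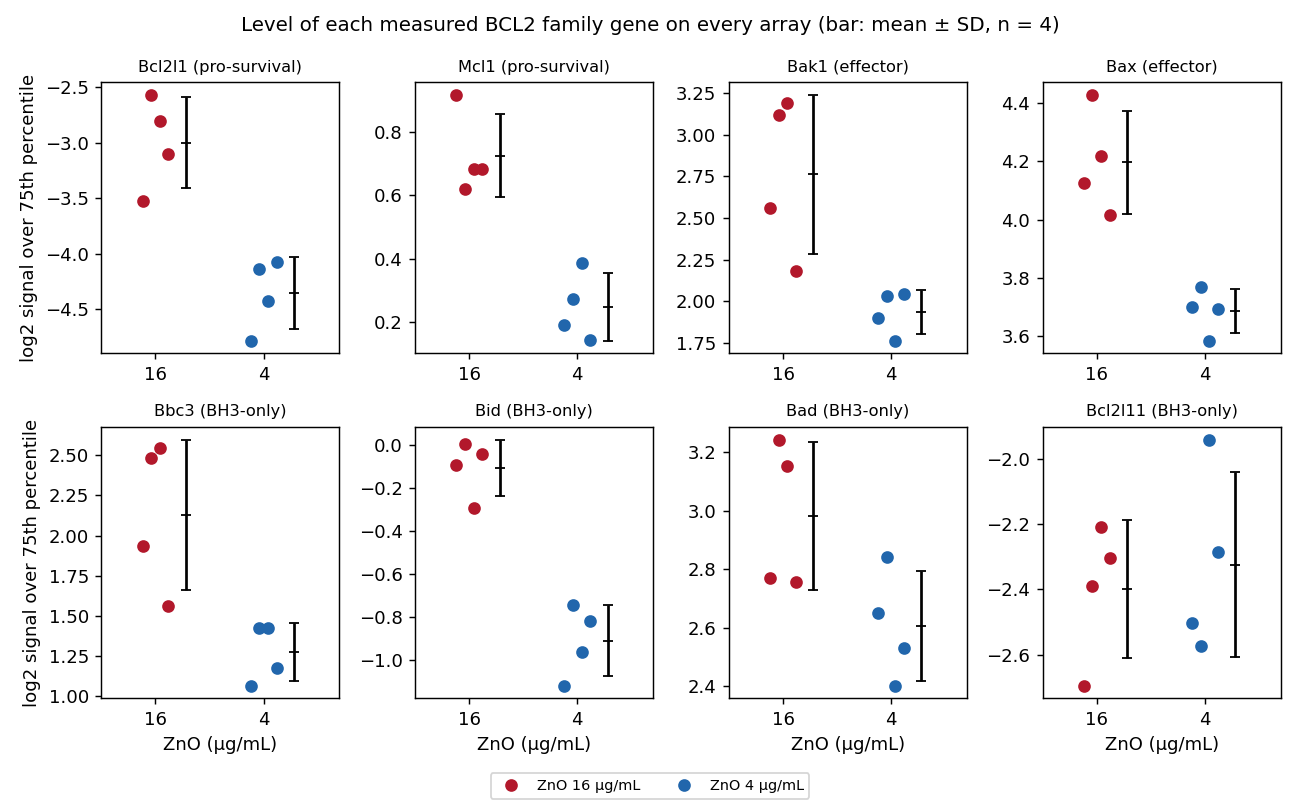
Log2 signal relative to the array's 75th percentile (vertical axis) of the 8 measured genes at 16 and 4 µg/mL ZnO (horizontal axis). Each point is 1 array and the bar is the mean ± SD of 4 arrays. The doses separate for Bcl2l1, Mcl1, Bak1, Bax, Bbc3 and Bid and overlap for Bad and Bcl2l11. The ZnO 4 points of Bcl2l1 come from a probe below the detection limit there, and without scaling or with spike-in scaling none of the genes was called.

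**Figure D2:**
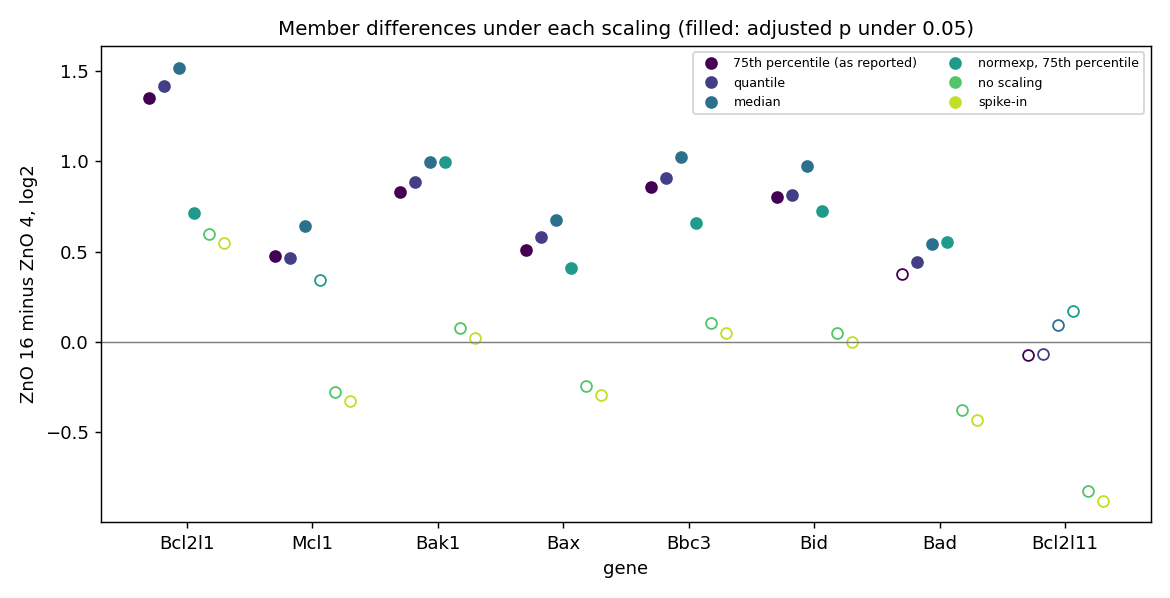
Difference, ZnO 16 minus ZnO 4 (log2, vertical axis), of each measured gene under 6 ways of scaling, shown by colour. Filled points have a limma adjusted p under 0.05. Bcl2l1, Mcl1, Bax, Bak1, Bbc3 and Bid are filled as reported, the same 6 and Bad with quantile normalization and median scaling, and under normexp background correction 6 genes with Bad in place of Mcl1. Without scaling and with spike-in scaling, where the median gene itself stands at -0.75 and -0.80, every point is open and Mcl1, Bax, Bad and Bcl2l11 lie below 0.

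Promoter sequence was available for 8 of the 10 members in RefSeq's table for build GRCr8, and for these the 250 bases before the transcription start were searched on both strands. The letters searched were the metal response element core TGCNCNC, bound by the zinc sensor MTF-1, the AP-1 site TGANTCA, the CRE core TGACGT and the ATF4 and C/EBP composite core TGATGCA. The loose pattern TGCNCNC was found in 5 of the 8 members (Bcl2l1, Bcl2l11, Bid, Mcl1 and Pmaip1), and in 43.4% of all 33469 promoters of the same length. A short degenerate pattern is thus common. The members were counted by gene, with a match at any listed start, and the table by promoter. The shares are therefore not strictly alike, and with 8 genes no excess is read. The CRE core was found in Pmaip1 alone of the 8 (6.95% of all promoters), and the AP-1 site (6.34%) and the composite core (2.5%) in 0 of them. The sequences below are those of 4 genes called higher at 16 µg/mL, 1 with matches in both orientations, 2 others with matches and 1 with none. Capitals mark matches to the loose pattern TGCNCNC or its reverse complement, and each sequence runs 5′ to 3′ on the gene's strand.
Bcl2l1 (GRCr8, chr3:161764776-161765025, minus strand): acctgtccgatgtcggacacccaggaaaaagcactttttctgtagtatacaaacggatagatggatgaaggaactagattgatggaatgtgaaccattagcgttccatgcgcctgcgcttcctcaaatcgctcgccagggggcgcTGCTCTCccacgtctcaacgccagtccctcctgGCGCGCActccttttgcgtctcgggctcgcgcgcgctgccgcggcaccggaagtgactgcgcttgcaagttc
Mcl1 (GRCr8, chr2:185907918-185908167, plus strand): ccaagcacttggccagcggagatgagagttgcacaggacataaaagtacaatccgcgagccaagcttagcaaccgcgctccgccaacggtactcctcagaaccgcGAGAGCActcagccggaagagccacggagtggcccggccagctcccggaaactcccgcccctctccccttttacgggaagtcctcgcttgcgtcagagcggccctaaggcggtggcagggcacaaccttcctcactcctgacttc
Bid (GRCr8, chr4:155808320-155808569, minus strand): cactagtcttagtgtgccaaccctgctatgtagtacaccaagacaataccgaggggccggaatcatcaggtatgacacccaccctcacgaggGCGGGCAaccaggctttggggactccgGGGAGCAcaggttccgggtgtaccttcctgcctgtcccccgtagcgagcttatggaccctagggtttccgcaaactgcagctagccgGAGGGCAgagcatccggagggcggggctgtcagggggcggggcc
Bak1 (GRCr8, chr20:5110975-5111224, minus strand): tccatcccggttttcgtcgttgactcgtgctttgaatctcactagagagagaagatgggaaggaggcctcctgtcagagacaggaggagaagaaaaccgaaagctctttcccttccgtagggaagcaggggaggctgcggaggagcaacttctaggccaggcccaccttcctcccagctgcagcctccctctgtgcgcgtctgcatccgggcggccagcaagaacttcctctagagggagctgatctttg
Counted from the start site, the Bcl2l1 matches begin at -105 and -72, the Mcl1 match at -145 and the Bid matches at -158, -131 and -44. Bcl2l1 has 4 start sites in the table, and the one shown is the first listed. A match is a description of these letters and not a measured site.

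Bcl2l1, which encodes the pro-survival protein BCL-XL, was detected at 16 µg/mL and not at 4 µg/mL. The level of its testable probe (A_44_P548065) was -3.52, -2.57, -2.80 and -3.10 on ZnO 16 replicates 1 to 4 and -4.78, -4.13, -4.42 and -4.07 on ZnO 4 replicates 1 to 4. All ZnO 16 arrays lay above all ZnO 4 arrays. The probe was dim: it was well above background on all 4 ZnO 16 arrays and on 0 of the 4 ZnO 4 arrays, where its processed signal was 17.8 to 25.5 against 25.4 to 44.4 at the higher dose. Its mean was -3.00 ± 0.41 at 16 µg/mL and -4.35 ± 0.33 at 4 µg/mL (SD, n = 4 each). With ZnO 4 levels raised to the detection limit, the mean was 2.33-fold higher at 16 µg/mL on the percentile scale. On each ZnO 4 array this takes the probe's level or the dimmest spot still called well above background, whichever is higher. The fitted difference was 1.35 (SE 0.29), 1.22 with signals below background raised to that limit and 0.71 under normexp background correction. It was 0.60 without scaling and 0.55 with spike-in scaling. Limma called it in the first 3 of these settings and not in the others. Since the probe passed the filter only through its ZnO 16 arrays, these differences are a description and no test is read.

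The other 3 Bcl2l1 probes match other transcripts of the gene and did not pass the filter. On 2 of these probes no array was well above background. The third (A_44_P1085814) was well above background on ZnO 4 replicate 3 alone, at a level of 0.08, against -6.75 to -5.82 on the ZnO 16 arrays and -6.83 to -6.06 on the other 3 ZnO 4 arrays. The higher level of Bcl2l1 on the percentile scale therefore rests on 1 probe of 4, under the detection limit at 4 µg/mL.

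Mcl1 encodes a short-lived pro-survival protein. The level of its brighter probe (A_43_P12128) was 0.92, 0.62, 0.68 and 0.68 on ZnO 16 replicates 1 to 4 and 0.19, 0.27, 0.39 and 0.14 on ZnO 4 replicates 1 to 4. The doses did not overlap, and the arrays within a dose lay close together. The means were 0.73 ± 0.13 and 0.25 ± 0.11, a difference of 0.48 (SE 0.12, limma adjusted p = 0.0105), with a call lost under normexp background correction (0.34, adjusted p = 0.0533). The second Mcl1 probe (A_44_P101211) gave nearly the same size, 0.47 (SE 0.19, adjusted p = 0.0647), but did not pass the test. On that probe ZnO 16 replicate 2, at -1.01, lay within the range of the ZnO 4 arrays, -1.32 to -0.81, and replicate 3 was just above it at -0.80.

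Bcl2, the founding pro-survival gene, was not measurable. Its single probe had processed signals of 2.48 to 3.88 on ZnO 16 arrays and 4.52 to 5.82 on ZnO 4 arrays and reached the detection limit on 0 of the 8. No difference is given for it.

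Bak1, which encodes the effector BAK, had levels of 2.56, 3.12, 3.19 and 2.18 on ZnO 16 replicates 1 to 4 and 1.90, 2.03, 1.76 and 2.04 on ZnO 4 replicates 1 to 4. The doses did not overlap, but the ZnO 16 arrays were spread widely, with replicates 2 and 3 high and replicate 4 close to the ZnO 4 arrays. The means were 2.76 ± 0.48 and 1.93 ± 0.13, a difference of 0.83 (SE 0.21, limma adjusted p = 0.0104). Replicates 2 and 3 are the dimmest arrays, and without both the difference was 0.44 and was no longer called (adjusted p = 0.0537).

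Bax, the other effector, was measured by a pair of probes that moved in opposite directions, each spotted 2 times per array. The brighter probe (A_44_P1164081) was at 4.12, 4.43, 4.22 and 4.01 on ZnO 16 replicates 1 to 4 and 3.70, 3.77, 3.58 and 3.69 on ZnO 4 replicates 1 to 4. The second probe (A_64_P015183) was at 2.09, 2.25, 1.89 and 1.68 on ZnO 16 replicates 1 to 4 and 2.82, 2.77, 2.70 and 2.48 on ZnO 4 replicates 1 to 4. The doses did not overlap on either probe: every ZnO 16 array was higher on the first and lower on the second.
By the rule that the brighter probe stands for a gene, Bax counted as higher, with a difference of 0.51 (SE 0.12, limma adjusted p = 0.00689). With every probe fitted as its own feature, the second probe fell by 0.72 (SE 0.14, adjusted p = 0.00308), beside 41.7% of all probes called and 21.7% called lower. The within-array log ratio of the first probe to the second was 2.22 ± 0.14 at 16 µg/mL and 0.99 ± 0.15 at 4 µg/mL. This change of 1.23 is not altered by scaling that divides each array by 1 factor. The second probe's fall was also called in every other scaling tried, from -0.55 with median scaling to -1.52 with spike-in scaling, whereas the first probe's difference was -0.24 without scaling. Both probes match the same Bax transcript, the files do not give their sequences, and the direction of Bax is thus unsettled by these arrays.

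**Figure D3:**
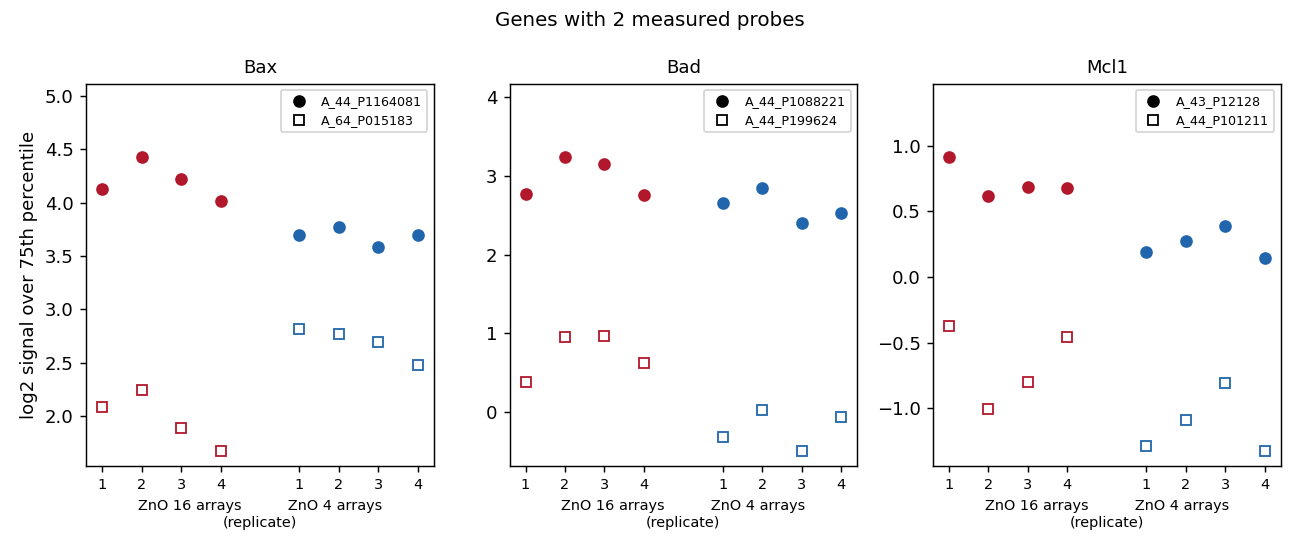
Log2 signal relative to the array's 75th percentile (vertical axis) on each array (horizontal axis, replicates 1 to 4 of ZnO 16, then of ZnO 4) for the genes with 2 measured probes. Filled circles are the probe that stood for the gene and open squares the other. On the Bax probes the doses separate in opposite directions, and on Bad only the second probe separates them. The height of one probe against another carries no meaning. Without scaling the filled Bax, Bad and Mcl1 probes all lie lower at 16 µg/mL.

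Among the BH3-only genes, Bid and Bbc3 were called. Bid, whose protein links death receptors to mitochondria after cleavage by caspase-8, was at -0.09, 0.01, -0.29 and -0.04 on ZnO 16 replicates 1 to 4 and -1.12, -0.74, -0.96 and -0.81 on ZnO 4 replicates 1 to 4. The doses lay well apart, with little spread within either. The means were -0.10 ± 0.13 and -0.91 ± 0.17, a difference of 0.80 (SE 0.14), with the smallest adjusted p of the 8 genes (limma, 0.00132). With spike-in scaling the Bid difference was 0.00.

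Bbc3 encodes PUMA, which binds all pro-survival proteins. Its levels were 1.94, 2.48, 2.54 and 1.56 on ZnO 16 replicates 1 to 4 and 1.07, 1.42, 1.42 and 1.18 on ZnO 4 replicates 1 to 4. The doses did not overlap, and replicates 2 and 3 were again the high ZnO 16 arrays, with replicate 4 just above the ZnO 4 arrays. The means were 2.13 ± 0.47 and 1.27 ± 0.18, a difference of 0.86 (SE 0.21, limma adjusted p = 0.00937). Without the dim replicates 2 and 3 the difference was 0.47 and the call was lost (adjusted p = 0.0547).

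Bad, whose protein is held inactive by phosphorylation and 14-3-3 binding, was at 2.77, 3.24, 3.15 and 2.76 on ZnO 16 replicates 1 to 4 and 2.65, 2.84, 2.40 and 2.53 on ZnO 4 replicates 1 to 4. The doses overlapped: ZnO 4 replicate 2 lay above ZnO 16 replicates 1 and 4. The difference of 0.37 (SE 0.15, 95% interval 0.04 to 0.71) was not called (limma adjusted p = 0.0703), and was called without ZnO 16 replicate 4 (0.45, adjusted p = 0.0412). The second Bad probe (A_44_P199624) was at 0.39, 0.96, 0.97 and 0.62 on ZnO 16 replicates 1 to 4 and -0.32, 0.03, -0.49 and -0.06 on ZnO 4 replicates 1 to 4. On this probe the doses did not overlap, and its difference of 0.95 (SE 0.17, adjusted p = 0.00194 with every probe its own feature) was 0.28 under normexp background correction (adjusted p = 0.102).

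Bcl2l11, which encodes BIM, showed no detectable difference. Its brighter probe was at -2.70, -2.39, -2.21 and -2.30 on ZnO 16 replicates 1 to 4 and -2.50, -2.57, -1.94 and -2.28 on ZnO 4 replicates 1 to 4. The doses overlapped throughout, with a difference of -0.07 (SE 0.20, 95% interval -0.52 to 0.37, limma adjusted p = 0.792). The other Bcl2l11 probe stayed under the detection limit on all 8 arrays. Pmaip1, which encodes NOXA, the BH3-only partner of MCL-1, was also below that limit on all 8 arrays, with processed signals of 2.51 to 3.96 on ZnO 16 arrays and 4.41 to 5.30 on ZnO 4 arrays.

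**Figure D4:**
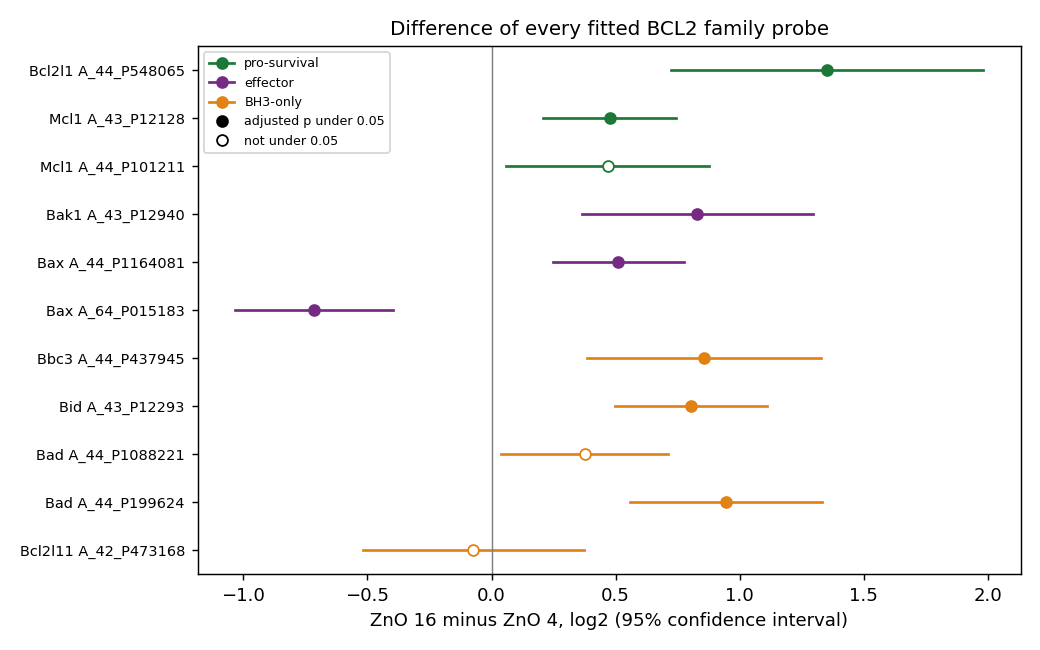
Difference, ZnO 16 minus ZnO 4 (log2, horizontal axis), of each of the 11 fitted member probes, with its 95% confidence interval and with colour for the class. Filled points have a limma adjusted p under 0.05 with every probe its own feature. The second Bax probe (-0.72) is the only one called lower. Both Mcl1 points, both Bax points, the brighter Bad point and the Bcl2l11 point lie below 0 without scaling and with spike-in scaling.

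To contrast the classes without any scaling between arrays, 5 pairs of a pro-survival gene and a partner were set against each other within each array, of which 3 could be measured. Only the change of such a log ratio between doses is read, since its height depends on the probes. Bcl2l1 minus Bak1 was -6.08, -5.69, -5.99 and -5.28 on ZnO 16 replicates 1 to 4 and -6.68, -6.16, -6.18 and -6.11 on ZnO 4 replicates 1 to 4. The doses did not overlap, and the ratio differed by 0.52.
Bcl2l1 minus Bad was -6.29, -5.81, -5.95 and -5.86 on ZnO 16 replicates 1 to 4 and -7.43, -6.97, -6.82 and -6.60 on ZnO 4 replicates 1 to 4. These did not overlap either, with a difference of 0.98. Since the Bcl2l1 probe was under the detection limit at 4 µg/mL, both differences are given as a description and no test is read. Under normexp background correction they were -0.28 and 0.16, so the direction of Bcl2l1 against Bak1 depends on the background correction. Mcl1 minus Bak1 was -1.64, -2.50, -2.51 and -1.50 on ZnO 16 replicates 1 to 4 and -1.71, -1.76, -1.37 and -1.90 on ZnO 4 replicates 1 to 4. The doses overlapped, and the change of -0.35 did not pass the test (two-sided exact permutation p = 0.314, where 70 assignments allow no p under 0.0286). Of all other genes, 50.4% had an exact p under 0.05 for their log ratio to Bak1. It was 0.11 without the dim ZnO 16 replicates 2 and 3. The pairs Bcl2 with Bax and Mcl1 with Pmaip1 could not be measured.

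Over the 8 arrays, the genes whose levels ran most like the leading member of each class were found by the root mean square distance between centred log2 levels, among 7748 genes with a symbol. For Bcl2l1 they were Atf5, a stress-induced transcription factor (distance 0.11), and Hcar2, a receptor for nicotinic acid and ketone bodies (0.15), with the ZnO 4 levels of Bcl2l1 under the detection limit. For Bak1 they were Farsa, a subunit of phenylalanyl-tRNA synthetase (0.063), and Map1lc3a, an autophagy protein (0.071). For Bbc3 they were Ciapin1, an iron-sulphur assembly factor (0.10), and Snd1, an RNA-binding nuclease (0.10).

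Outside the members, apoptosis genes were called about as often in each direction as all genes were. Of 41 measured genes on 6 lists, 9 were called higher and 10 lower, or 22.0% and 24.4%, beside 19.8% and 21.9% of all genes, with a median difference of -0.03 beside 0.00. The counts of the single lists below stand beside the same background, and with 4 to 13 measured genes a list nothing particular to a list is read from them. Among the other multi-domain BCL2 proteins 0 of 4 were called higher and 1 lower. This was Bcl2a1, encoding A1, at -0.86 ± 0.01 (n = 3) and -0.43 ± 0.07 (n = 4), a difference of -0.43 (SE 0.13, limma adjusted p = 0.0291). The fit drops 1 ZnO 16 array whose spot had an outlier flag, and with it kept the difference was -0.05. Among other BH3-type proteins 0 of 4 were called higher and 1 lower, Bmf, a stress-responsive BH3-only gene (-0.66, SE 0.22, adjusted p = 0.0331). Leaving out 1 array at a time, the Bmf and Bcl2a1 calls each survived in only 2 of 8 cases.

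Of 13 measured genes of mitochondrial release and the apoptosome, 3 were called higher and 5 lower. Casp9, the initiator caspase of the apoptosome, was at -1.33 ± 0.25 and -2.03 ± 0.17, a difference of 0.70 (SE 0.18, limma adjusted p = 0.0103). Endog, a mitochondrial nuclease, differed by 0.67 (SE 0.20, adjusted p = 0.0218), a call lost without ZnO 16 replicate 2 (0.55), without ZnO 16 replicate 3 (0.56) and without ZnO 4 replicate 3 (0.58). Without both dim ZnO 16 arrays neither Casp9 (0.48) nor Endog (0.32) was called. Xiap, a caspase inhibitor, fell by 1.18 (SE 0.34, adjusted p = 0.0187) on its brighter probe but was higher by 1.60 on its other probe, so its direction is unsettled as well. Under normexp background correction Xiap (-0.28) and Endog (0.34) were not called.

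Of 7 measured transcription factors known to act on BCL2 family genes, 4 were called higher and 1 lower. Ddit3, encoding CHOP, which is known from mouse and human cells to lower Bcl2 and raise Bcl2l11 and Bbc3 under endoplasmic reticulum stress, was at 3.99 ± 0.35 and -0.83 ± 2.12, a difference of 4.82 (SE 0.82, limma adjusted p = 0.00124). The dim area of ZnO 4 replicate 4 covers its spot, and with the area masked the difference was 3.78. Jun, a subunit of AP-1, was higher by 2.95 (SE 0.17, adjusted p = 9.27e-07). E2f1, a cell cycle transcription factor named after its values were seen, was also called higher (0.60). Stat3, an activator of Bcl2l1 and Mcl1, fell by 1.52 (SE 0.12, adjusted p = 7.65e-06).

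Of 7 measured genes of the turnover and handling of BCL2 proteins, 1 was called higher, Tmbim6, encoding the endoplasmic reticulum protein BAX inhibitor-1 (0.90, SE 0.12, limma adjusted p = 0.000285). The 1 called lower was Ywhab, a 14-3-3 protein of the kind that binds phosphorylated BAD (-1.07, SE 0.12, adjusted p = 8.85e-05). On the death receptor route to Bid, Ripk1, a kinase of the TNF receptor complex, was higher (0.85, SE 0.15, adjusted p = 0.00169) and Tnfrsf1a, that receptor itself, was lower (-1.12, SE 0.16, adjusted p = 0.000352), among 6 measured. Casp9 (-0.06) and Endog (-0.08) lay below 0 without scaling, where Tmbim6 and Ripk1 were not called, and under normexp background correction Ripk1 (0.24) was not called either, while Jun, Ddit3, Stat3, Ywhab and Tnfrsf1a kept their direction and their call in every scaling tried.

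**Figure D5:**
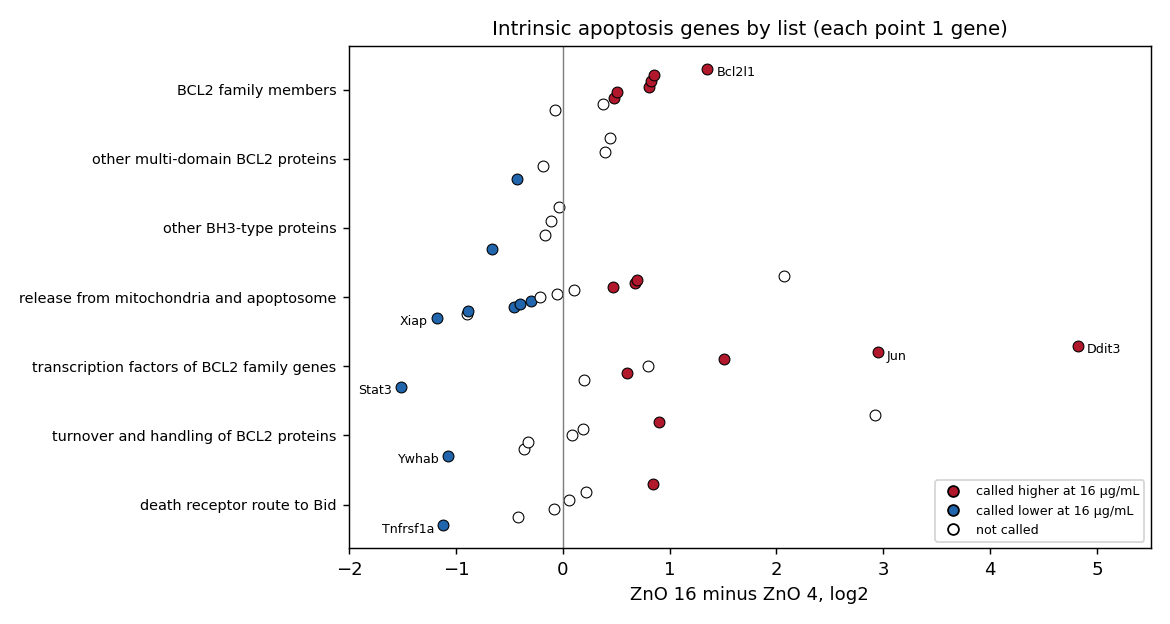
Difference, ZnO 16 minus ZnO 4 (log2, horizontal axis), of each measured gene, with the BCL2 family members in the top line and the 6 lists of related genes below. Filled points have a limma adjusted p under 0.05, red for higher and blue for lower at 16 µg/mL. Of the 8 members 6 are called higher and 0 lower, with Bcl2l1 under the detection limit at 4 µg/mL. On the lists 22.0% are called higher and 24.4% lower, beside 19.8% and 21.9% of all genes. Without scaling and with spike-in scaling no member was called.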

How the data were processed

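Cy3-labelled cRNA was hybridised to 1-colour Agilent arrays, per the labels' protocols. According to the submitters' processing notes the scans were read with Agilent Feature Extraction 11.0.1.1, and build rn4 is named in the headers. The deposited processed signal is an intensity on a linear scale, corrected for background and for spatial trend per the file headers, and not scaled between arrays. Accessions were matched without versions to RefSeq symbols (46.3% of probes), used for names only.

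Each array's log2 processed signal was set against its 75th percentile over non-control spots. Outlier-flagged spots were dropped and repeated spots averaged. A probe entered the fit if well above background on at least 3 of 4 arrays of at least 1 dose. The brightest probe stood for its gene. Differences were fitted over all 13460 genes with limma 3.58.1 in R 4.3.3 (lmFit, eBayes with an intensity trend, two-sided, Benjamini-Hochberg), and the code was tested on simulated data. Single values used an exact permutation test. No spot was saturated. Signal over background and the 4 arrays per dose limit the precision. The members and lists were chosen with earlier results of these data known. Genes named are the members, the 2 largest called differences in each direction per list, and the 2 genes nearest in pattern to the leading member of each class. Some genes that enter the counts are not reported here by name. Alternatives varied the background correction, scaling, filter, outlier flags, probe choice, variance model, low-signal area, replicate block and arrays used. The replicate numbers were checked for pairing: same-numbered arrays had deviations correlated between -0.22 and 0.40, so the numbers were not taken as pairs.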

Additional observations from a re-analysis of the deposited data

Results flagged for a closer look

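Of 40 groups of 4 arrays checked for a single array far from the rest, 2 stood out, and chance gives about 1 in 20. The Bcl2l1 probe A_44_P1085814 had a level of 0.0765 (processed signal 505) on ZnO 4 replicate 3, where it was well above background, against -6.83 to -6.06 on the other 3 arrays of that dose. The gap to the nearest array was 0.888 of the group's whole range. This probe did not enter the tests. The within-array log ratio Bcl2l1 minus Bak1 was -6.68 on ZnO 4 replicate 1, the lowest of its dose, with a gap of 0.88 of the range. Leaving out 1 array at a time, the change of this ratio between doses stayed between 0.37 and 0.63.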

How the results depend on the processing

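The calls of the 6 members were kept in all 8 fits that left out 1 array. In those fits 6 or 7 members were called higher and 0 lower, beside 1953 to 2695 genes called higher and 2295 to 2836 lower. The 6 calls were also kept with the replicate block, with low-signal areas masked, without the intensity trend and with outlier flags ignored. Bcl2l1 is 1 of the 6 and passed the filter only through its ZnO 16 arrays, so its kept call adds no support. The member calls depend on scaling. Genes called higher and lower numbered 2669 and 2943 as reported, 229 and 4417 without scaling and 224 and 5084 with spike-in scaling, where 0 members were called higher in either. Without scaling the differences were -0.278 for Mcl1, -0.243 for Bax, -0.379 for Bad, -0.0574 for Casp9 and -0.0807 for Endog. With spike-in scaling they were -0.329 for Mcl1, -0.295 for Bax, -0.000793 for Bid, -0.431 for Bad, -0.109 for Casp9 and -0.132 for Endog. The cause was not tested. Bcl2l11, never called, was at 0.169 with normexp, 0.093 with median scaling, and between -0.157 and 0.0536 with 1 array left out (0.0243 without ZnO 16 replicate 1, 0.0536 without ZnO 4 replicate 3). Bad was called under normexp (0.55), median scaling (0.54) and quantile normalization (0.44). Where only probes well above background on all 8 arrays were kept, Bcl2l1 dropped out and 5 of 7 members were called. Without ZnO 16 replicates 2 and 3, an alternative chosen after seeing the data, 4 members were called higher. The share of all genes called in that fit is not given here, so nothing is read from this count.

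The ratio Bcl2l1 minus Bak1 changed by -0.281 with normexp, 0.534 with quantile normalization and 0.392 with signals below background raised. Its change lay between 0.365 and 0.632 with 1 array left out. Bcl2l1 minus Bad changed by 0.163 with normexp, and Mcl1 minus Bak1 by 0.114 without ZnO 16 replicates 2 and 3. With the sign-flip test on same-numbered pairs the smallest possible p is 0.125, so it cannot pass the threshold. Of the related lists, 9 genes were called higher as reported, 2 without scaling, 2 with spike-in scaling and 5 without ZnO 16 replicates 2 and 3. The 10 called lower became 4 with normexp, 4 with median scaling, 16 with spike-in scaling, 6 with no filter on dim probes and 5 to 9 with 1 array left out. With the replicate number as a block, no member call changed (6 higher), while Bmf (-0.66, adjusted p = 0.0655) and Bcl2a1 (-0.40, adjusted p = 0.085) were no longer called. Own-numbered arrays correlated best in 2 of 4 cases.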
